A study of Bos taurus with 8 samples.

Results

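The SLC25 family comprises the mitochondrial carriers, the transport proteins that move metabolites across the inner mitochondrial membrane. Its members were taken as the probe sets whose annotation gave 1 symbol made of SLC25A and a number, with the probe set of highest mean intensity standing for each gene. This gave 44 genes from 45 probe sets, out of 26773 probe sets on the array, of which 18457 had a single gene symbol. SLC25A6 was the gene with more than 1 probe set.

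Granulosa cells form the wall of the ovarian follicle around the oocyte, respond to follicle-stimulating hormone and convert androgens to estrogens. They were collected from 8 cows at ovariectomy, about 36 h after the end of a 7 day progesterone treatment that was closed by an injection of prostaglandin F2alpha. The synchronization of cycles also used gonadotropin releasing hormone. All cows were 75% Red Angus and 25% MARC III, and each gave the estrogen-active dominant follicle, with mural and cumulus granulosa cells of at least 94% purity per the labels. The 4 High A4 cows had a mean of 356 ng/mL of androstenedione (A4), an androgen, in the follicular fluid, and the 4 Control cows had a mean of 1.9 ng/mL. Per the paper, these cows were selected from larger groups, at the top of the A4 range for High A4 and at the bottom for Control. The androgen content was observed and not given as a treatment, and the sources used here do not state the ages of cows or follicles. RNA of each cow was hybridized to its own Affymetrix Bovine Gene 1.0 ST array, so the spread between arrays holds the spread between cows.

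Mitochondrial carriers share a fold of membrane-spanning helices built from similar repeats, and nearly all of them sit in the inner membrane. They exchange ADP for ATP, import phosphate, pass citrate, malate, aspartate, glutamate and other metabolites, and bring in cofactors and iron. In steroid-producing cells the first step of steroid synthesis takes place inside the mitochondrion, which depends on the same membrane for its reducing power and heme.

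Values are deposited normalized intensities on a linear scale in arbitrary units, and levels are compared between cows for 1 gene and not between genes. An intensity of 100 is the noise threshold of the study. Probe sets with a group mean above 100 in at least 1 group, 10120 in all, were tested on the log2 scale with limma, and p-values were adjusted over all of them by the method of Benjamini and Hochberg with a threshold of 0.05. A log2 difference is High A4 minus Control throughout. The probe sets tested were not centred on 0: their median log2 difference was -0.16, and 74.3% of them were lower in High A4. Over all 26773 probe sets the median was -0.01 and 50.7% were lower. The 14 granulosa cell markers checked, FSHR, CYP19A1 and FOXL2 among them, were above 100 on every array, with a lowest value of 107. None passed in limma in either direction, and 7 had higher and 7 lower means in High A4. CYP11A1 was the 1 marker at an unadjusted p under 0.05 (log2 difference 0.48, unadjusted p = 0.0132 and adjusted p = 0.142 from limma). Between 9065 and 9687 probe sets were above 100 on an array, and pairs of arrays correlated with r from 0.82 to 0.98 over the probe sets tested.

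Of the 44 SLC25 genes, 29 had a group mean above 100 and 15 did not. None of the 29 passed in limma, in either direction, where 1.56% of all probe sets tested were higher and 0.623% lower in High A4. At an unadjusted p under 0.05, 5 of the 29 (17.2%) were lower, SLC25A4, SLC25A11, SLC25A13, SLC25A24 and SLC25A27, and 0 were higher, beside backgrounds of 17.1% lower and 4.83% higher. By the study's criterion, a fold change above 1.5 and p under 0.05, read here as p before adjustment, SLC25A4 and SLC25A11 were lower (6.90% of the 29, background 6.23%) and 0 were higher (background 3.2%). That count of 2 was 0 without High A4 replicate 1 or Control replicate 2, 1 without High A4 replicate 2 or Control replicate 1, 3 or 4, and 3 without High A4 replicate 4. In SLC25A13 and SLC25A15 every High A4 cow lay below every Control cow, 6.90% of the 29 against 10.4% of all probe sets tested, and in 0 of the 29 every High A4 cow lay above (background 2.93%). The shares of carrier genes lower by each of these measures were thus near or under the shares over all probe sets tested.

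Over all 44 genes, without the noise threshold, the median log2 difference was -0.15, where the median of all 26773 probe sets was -0.01. Bright and dim carriers lay on opposite sides of 0, and so did bright and dim probe sets of the array. The 28 carriers with a mean over the 8 arrays above 100 had a median of -0.23, beside -0.16 for all 9535 such probe sets. The 16 carriers at or under that mean had a median of 0.07, beside 0.11 for the other 17238. Of the 29 carriers tested, 24 had a lower mean in High A4, but this count was 19 after quantile normalization and 18 after cyclic loess, under which 55.7% and 52.0% of all probe sets tested were lower.

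**Figure D1:**
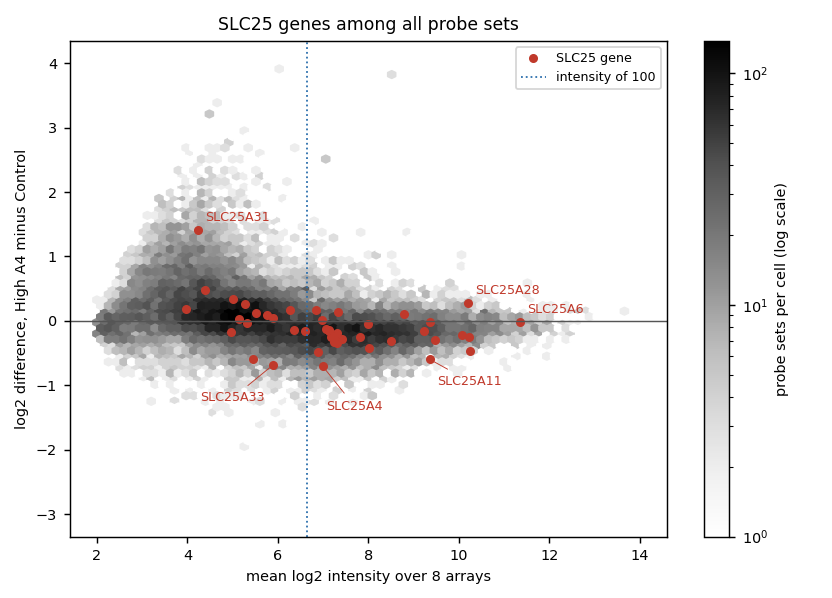
Mean log2 intensity over the 8 arrays (x axis) against the log2 difference of High A4 minus Control (y axis) for all 26773 probe sets (grey cells, darker for more probe sets on a log scale) and the 44 SLC25 genes (red points). Carriers right of the dotted line at 100 lie mostly below 0 with the bulk of the probe sets there, and SLC25A31 stands at 1.42 among dim probe sets that also reach high values.

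The carriers of adenine nucleotides and phosphate supply the ATP synthase with its substrates and send ATP to the cytosol. Of the 9 genes of this class 6 had a group mean above 100 and none passed. SLC25A4 encodes the ADP/ATP carrier typical of heart and skeletal muscle. Its intensity was 53.2, 92.1, 143 and 140.2 in the High A4 cows and 139.7, 157, 152 and 208 in the Control cows. High A4 replicate 1 was far below the rest, and High A4 replicates 3 and 4 reached the lower end of the Control range. The means were 107 ± 42.8 and 164 ± 30.2 (n = 4 cows per group, ± SD), a log2 difference of -0.71 (standard error 0.30, limma adjusted p = 0.207), and without High A4 replicate 1 the difference was -0.40.

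SLC25A5, the ADP/ATP carrier of dividing cells and many other tissues, showed the same pair of low cows. It had 534, 1002, 1492 and 1443 in High A4 and 1471, 1490, 1130 and 1707 in Control. The groups overlapped, and the log2 difference was -0.47 (standard error 0.30, limma adjusted p = 0.37). SLC25A6, the third ADP/ATP carrier of somatic cells, had 2662, 2880, 2132 and 2831 in High A4 and 3026, 2991, 2389 and 2240 in Control. Its log2 difference was -0.02, with a 95% interval of -0.37 to 0.33, and the sign turned to 0.03 with quantile normalization and 0.04 with cyclic loess. The second probe set of SLC25A6 gave 0.01. The coding sequences of the ADP/ATP carriers are alike, and how far their probe sets share transcripts is not given in the sources used here.

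SLC25A31 encodes a further ADP/ATP carrier, known from the germ cells of the mouse testis. Its intensity was 25.0, 32.1, 38.3 and 28.6 in the High A4 cows and 11.3, 11.5, 9.74 and 13.7 in the Control cows. All 4 High A4 cows were above all 4 Control cows, and the lowest High A4 value was 1.83 times the highest Control value. The same separation was found in 2780 of the 17238 probe sets with a mean over the 8 arrays at or under 100. Both means, 31.0 ± 5.66 and 11.6 ± 1.61 (n = 4 cows per group, ± SD), were far under the noise threshold, so the gene was not part of the main test. Without the noise threshold its log2 difference was 1.42 (standard error 0.17, limma adjusted p = 0.000516), and it was singled out after its values were seen. It was the 1 carrier of 44 that passed that test (2.27%), where 8.47% of all probe sets were higher and 1.64% lower. Among the 15 carriers under the threshold it was 1 as well (6.67%), where 12.2% of all probe sets under it were higher and 1.12% lower. Of 5362 probe sets with a mean between 16 and 32, 272 had a log2 difference at least as large, and the median over the 5362 was 0.18. Of the same 5362, 963 (18.0%) were higher in limma without the noise threshold. With an offset of 50 added to the intensities the difference of SLC25A31 was 0.39 (limma adjusted p = 0.0095), and in an analysis of variance with raised error variance the adjusted p was 0.0777.

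Because SLC25A31 is a germ cell gene and the samples hold cumulus cells, which surround the oocyte, markers of oocytes were looked at after its values were seen. All 12, GDF9, BMP15, ZP3, DAZL and DDX4 among them, had group means under 100, and their summed intensity was 332 to 424 in High A4 and 303 to 337 in Control. Without the noise threshold 3 of the 12 were higher in High A4 and 0 lower in limma, beside 12.2% and 1.12% of all probe sets under the threshold, and the lowest value of the list was 5.86 (no marker was at 0). Their part in the values of SLC25A31 was not tested.

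The carrier of inorganic phosphate, SLC25A3, had a log2 difference of -0.26 (standard error 0.14, limma adjusted p = 0.297), from 1096 ± 179 in High A4 and 1297 ± 37.2 in Control (n = 4 cows per group, ± SD). High A4 replicate 4, at 1343, was the highest of the 8 cows and the other 3 High A4 cows were the lowest. The calcium-regulated carriers exchange ATP-Mg for phosphate and so set the size of the adenine nucleotide pool in the matrix. SLC25A24, one of them, had 79.7, 98.7, 97.6 and 132 in High A4 and 144, 151, 131 and 138 in Control. High A4 replicate 4 was the cow whose value entered the Control range. The log2 difference was -0.49 (standard error 0.16, unadjusted p = 0.0121 and adjusted p = 0.138 from limma), the smallest adjusted p among the 29 carriers tested. Without High A4 replicate 4 it was -0.62 with a limma adjusted p of 0.0281, and with array weights the adjusted p was 0.0308. Of all probe sets tested, 5.63% passed as lower without that cow and 9.28% with array weights, beside 0.623% in the main fit. Its relative SLC25A23 had a log2 difference of 0.02 (95% interval -0.45 to 0.49), and the sign turned to -0.05 with arrays centred on the median. SLC25A25 and SLC25A41 were under the noise threshold, with log2 differences of -0.14 and 0.26.

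The carriers of di- and tricarboxylates link the citric acid cycle to the cytosol. SLC25A11 exchanges oxoglutarate for malate in the malate-aspartate shuttle, which brings the electrons of cytosolic NADH into mitochondria. It had 361, 537, 578 and 711 in High A4 and 871, 893, 768 and 698 in Control. The groups met at 1 point, where High A4 replicate 4 lay above Control replicate 4. The means were 547 ± 144 and 808 ± 91.3 (n = 4 cows per group, ± SD), a log2 difference of -0.60 (standard error 0.20, unadjusted p = 0.0139 and adjusted p = 0.146 from limma). Without High A4 replicate 4 the difference was -0.74 with a limma adjusted p of 0.0464, and with array weights the adjusted p was 0.027. Without that cow 575 of all probe sets tested passed as lower in place of 63, so SLC25A11 and SLC25A24 passed together with 5.63% of them. With array weights 939 passed as lower, 9.28% of those tested, with SLC25A1, SLC25A11 and SLC25A24 among them.

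SLC25A1 exports citrate, the source of acetyl-CoA for fatty acid and cholesterol synthesis. It had 807, 565, 546 and 683 in High A4 and 853, 799, 768 and 739.9 in Control, and here High A4 replicate 1 was the cow inside the Control range. The log2 difference was -0.30 (standard error 0.15, limma adjusted p = 0.27). With array weights the limma adjusted p was 0.0391, in a fit where 9.28% of all probe sets tested passed as lower. SLC25A21, which carries oxoadipate, was under the noise threshold at -0.04.

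The aspartate and glutamate carriers are the other membrane step of the malate-aspartate shuttle. SLC25A13, known as citrin in human liver, had 175, 241, 228 and 259.7 in High A4 and 286, 294, 349 and 274 in Control. All High A4 cows were below all Control cows, with a gap between 259.7 and 274. The means were 226 ± 36.2 and 301 ± 33.1 (n = 4 cows per group, ± SD), a log2 difference of -0.42 (standard error 0.15, unadjusted p = 0.0213 and adjusted p = 0.169 from limma). SLC25A12, its counterpart of brain and muscle, had a log2 difference of -0.25 (limma adjusted p = 0.411) with overlapping groups. Of the 4 enzymes of the shuttle 0 passed in limma. MDH1, the cytosolic malate dehydrogenase, had 571 ± 106 in High A4 and 751 ± 64.9 in Control (n = 4 cows per group, ± SD, log2 difference -0.41, limma adjusted p = 0.173), and GOT2, the mitochondrial aspartate aminotransferase, had -0.20 (limma adjusted p = 0.328). The median over the 4 was -0.16, the same as over all probe sets tested.

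Among other carriers of amino acids, SLC25A15 passes ornithine and citrulline. Its High A4 values of 202, 212, 212 and 203 hardly varied, and lay below the Control values of 295, 253, 231 and 213. The groups were separated by less than 2 intensity units, and the log2 difference was -0.25 (standard error 0.13, limma adjusted p = 0.288). SLC25A38 imports glycine for heme synthesis and had a log2 difference of -0.28 (limma adjusted p = 0.266), from 154 ± 12.6 in High A4 and 188 ± 25.6 in Control (n = 4 cows per group, ± SD). SLC25A44, a carrier of branched-chain amino acids, had -0.05 with a 95% interval of -0.45 to 0.34. SLC25A20 trades acylcarnitine for carnitine and so admits long-chain fatty acids to oxidation. It had 169, 143, 188 and 179 in High A4 and 175, 146, 164 and 132 in Control, a log2 difference of 0.14 (limma adjusted p = 0.569) with overlapping groups. The 5 enzymes of the carnitine shuttle that surrounds it had a median of -0.22, and 0 passed in limma. CRAT was at -0.18 (limma adjusted p = 0.454) and CPT1A, tested through its Control mean alone, at -0.22 (limma adjusted p = 0.641). SLC25A2, SLC25A22 and SLC25A29 were under the noise threshold, with log2 differences of 0.18, 0.02 and 0.18.

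**Figure D2:**
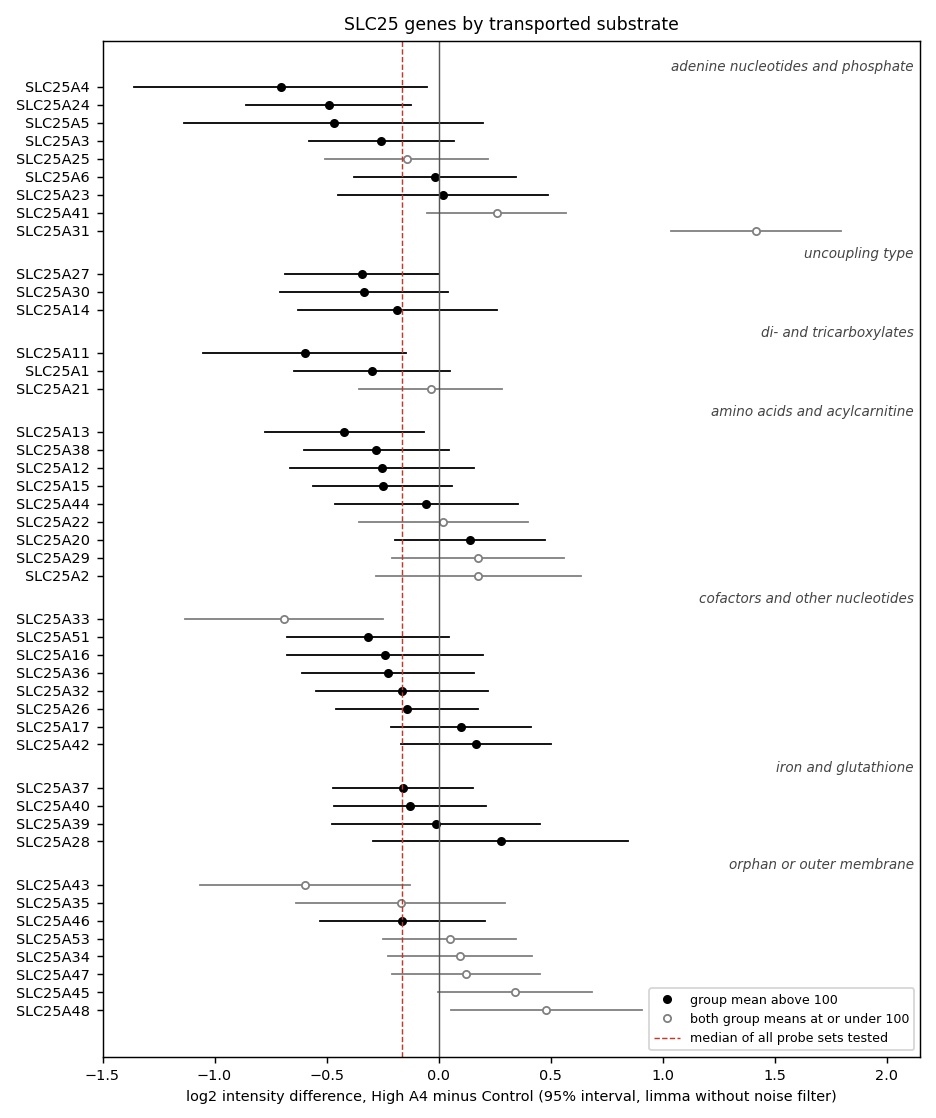
Log2 difference of High A4 minus Control (x axis) for each of the 44 SLC25 genes (y axis, grouped by transported substrate), with the 95% interval of limma without the noise threshold; filled points have a group mean above 100, open grey points do not, and the dashed line marks the median of all probe sets tested at -0.16. Most intervals include both 0 and the dashed line, and SLC25A31 at 1.42 stands apart from the other members.

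The carriers of uncoupling type, SLC25A14, SLC25A27 and SLC25A30, resemble the uncoupling proteins in sequence, and their substrates are less settled. All 3 measured genes were above 100, had lower means in High A4 and did not pass. SLC25A27 had 133, 147, 127 and 152 in High A4 and 147, 173, 174 and 221 in Control, with Control replicate 4 the highest of the 8 cows. Its log2 difference was -0.34 (standard error 0.15, unadjusted p = 0.0441 and adjusted p = 0.217 from limma). SLC25A30 had -0.33 (limma adjusted p = 0.262) and again its highest value, 215, in Control replicate 4. SLC25A14 had -0.18 (limma adjusted p = 0.584), and this was 0.01 without High A4 replicate 1, whose value of 99.4 was the lowest. The uncoupling proteins UCP1, UCP2 and UCP3 and the outer membrane relatives MTCH1 and MTCH2 belong to the family under other symbols. None of these 5 passed in limma. MTCH1 was at 0.19 (limma adjusted p = 0.493) and MTCH2 at -0.24 (limma adjusted p = 0.484), while UCP1 and UCP3 were under the noise threshold.

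Of the 8 measured carriers of cofactors and other nucleotides 7 had a group mean above 100, and 0 passed in limma. SLC25A33 carries pyrimidine nucleotides for mitochondrial DNA and RNA, and in human cells responds to insulin-like growth factor. Its intensity, under the noise threshold, was 36.7, 49.2, 38.6 and 66.7 in High A4 and 64.7, 73.4, 79.5 and 83.6 in Control. High A4 replicate 4 overlapped Control replicate 1, and the other 3 High A4 cows were below all Control cows. The log2 difference was -0.69, with a limma adjusted p of 0.0535 without the noise threshold, and it was singled out after its values were seen. Without High A4 replicate 4 the difference was -0.87 with a limma adjusted p of 0.00952. Among probe sets above the threshold, 5.63% passed as lower without that cow, beside 0.623% with all cows. SLC25A36, the other pyrimidine nucleotide carrier, had a log2 difference of -0.23 (limma adjusted p = 0.429). Its High A4 replicate 1 had 729, where the other High A4 cows had 1058 to 1118.

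SLC25A51, which imports NAD, had 371, 361, 269.5 and 312 in High A4 and 411, 471, 331 and 421 in Control. The groups overlapped, with a log2 difference of -0.31 (standard error 0.16, limma adjusted p = 0.267). SLC25A42 (coenzyme A) and SLC25A17 (a peroxisomal member of the family) had higher means in High A4, with log2 differences of 0.17 (limma adjusted p = 0.5) and 0.10 (limma adjusted p = 0.665). The High A4 cows of SLC25A42 lay between 118 and 123, above Control replicates 1, 2 and 4 at 96.5 to 103 and below Control replicate 3 at 141. SLC25A16, SLC25A26 (S-adenosylmethionine) and SLC25A32 (folate) had log2 differences of -0.24, -0.14 and -0.16. SLC25A32 entered the test through its Control mean of 102 alone.

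The mitoferrins SLC25A28 and SLC25A37 import iron, and SLC25A39 and SLC25A40 glutathione. All 4 were above 100 and none passed in limma. SLC25A28, the mitoferrin of tissues other than developing red cells, had 795, 1351, 1354 and 1984 in High A4 and 1371, 1075, 887 and 1022 in Control. The High A4 cows spanned more than the whole Control range, from the lowest to the highest value of the 8 cows. The log2 difference was 0.28 with a 95% interval of -0.29 to 0.85 (limma adjusted p = 0.523), and it was 0.08 with High A4 replicate 4 left out and 0.51 with replicate 1 left out. SLC25A37 had -0.16 (limma adjusted p = 0.48). SLC25A39 had -0.01 with a 95% interval of -0.47 to 0.45, and Control replicate 4, at 417, was below all other cows, which had 589.7 to 809. SLC25A40 had -0.13 (limma adjusted p = 0.612).

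Of 10 measured genes of mitochondrial iron, heme and iron-sulfur cluster metabolism, 9 had lower means in High A4 and 0 passed in limma, with 4 of 9 tested at an unadjusted p under 0.05, all lower. Over all probe sets tested 74.3% had lower means and 17.1% were lower at that p. Over all 26773, those under the noise threshold included, 50.7% had lower means. ABCB10, an inner membrane transporter that stabilizes mitoferrin in mouse erythroid cells, had 135, 116, 107 and 167 in High A4 and 168, 173, 212 and 208 in Control. The groups did not overlap, though High A4 replicate 4 and Control replicate 1 differed by about 1 unit, and the log2 difference was -0.55 (standard error 0.17, limma adjusted p = 0.12). ISCA2, an iron-sulfur assembly factor, had -0.52 (limma adjusted p = 0.147) and entered the test through its Control mean alone. The median of the list was -0.36.

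SLC25A46 is a member of the outer membrane that acts in mitochondrial dynamics. It was at 576 ± 107 in High A4 and 637 ± 49.3 in Control (n = 4 cows per group, ± SD), a log2 difference of -0.16 (limma adjusted p = 0.556). The other 7 orphan members, whose substrates were unknown or unsettled, were all under the noise threshold, with log2 differences from -0.60 for SLC25A43 to 0.48 for SLC25A48. SLC25A43 had 26.2, 47.8, 28.8 and 43.4 in High A4 and 45.8, 51.4, 60.0 and 57.9 in Control, where High A4 replicate 2 overlapped Control replicate 1. It was singled out after its values were seen, and its limma adjusted p without the noise threshold was 0.108.

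In single cows, High A4 replicate 1 had the lowest of the 8 values in 15 of the 28 carriers with a mean above 100, beside 37.2% of all such probe sets. Control replicate 4 had the highest value in 10 of the 28, beside 29.7% of all, and the lowest in 5, beside 11.8% of all. Relative to the Control mean, the median deviation over the 28 carriers was -0.39 in High A4 replicate 1, -0.15 in replicate 2, -0.18 in replicate 3 and -0.04 in replicate 4, where the medians over all such probe sets were -0.23, -0.16, -0.17 and -0.05. In replicates 2, 3 and 4 the carriers lay close to all such probe sets, and in replicate 1 they lay lower. The SD of log2 intensity between cows had a median over the 44 carriers of 0.23 in High A4 and 0.20 in Control, and it was larger in High A4 for 24 of the 44. Among the 28 with a mean above 100 it was larger in High A4 for 14, beside 70.6% of all such probe sets. The medians of 0.22 and 0.21 in these carriers stood beside 0.27 and 0.18 over those probe sets.

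**Figure D3:**
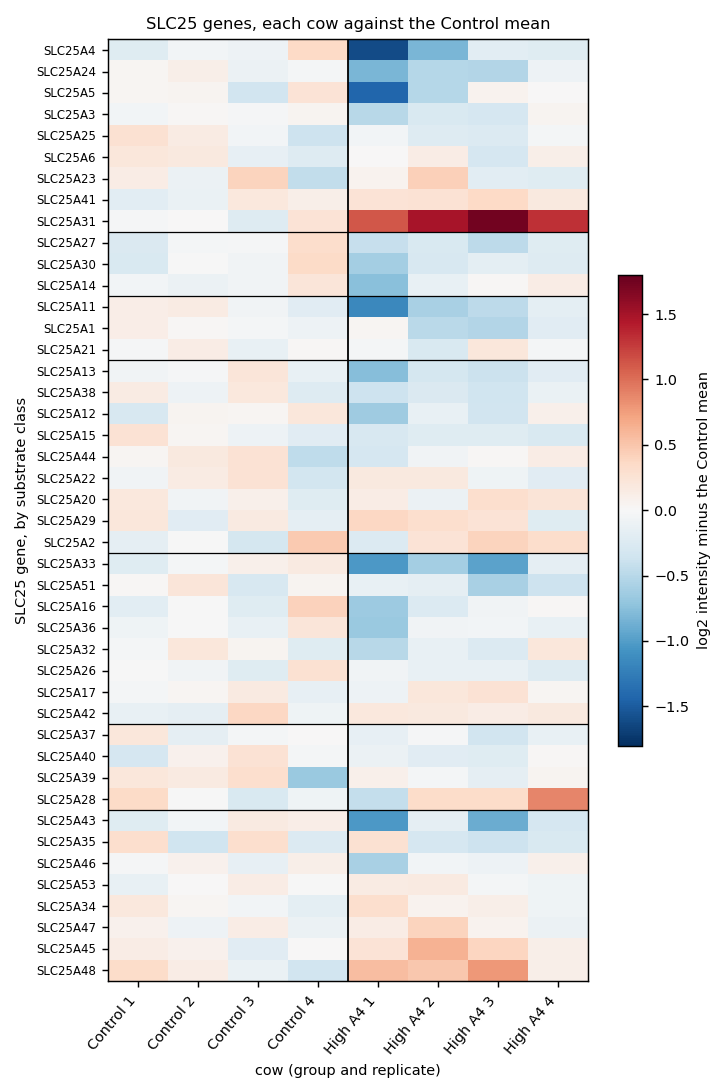
Log2 intensity minus the mean log2 intensity of the Control cows (colour, red above and blue below) for the 44 SLC25 genes (rows, grouped by substrate class and ordered by log2 difference) in each of the 8 cows (columns). High A4 replicate 1 is blue for many carriers, with its lowest values in SLC25A4 and SLC25A5, High A4 replicate 4 is pale except for SLC25A28 and SLC25A31, and SLC25A31 is red in all 4 High A4 cows.

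Carriers made in the cytosol are recognized by TOMM70 at the outer membrane, pass the TOMM40 pore and are inserted into the inner membrane by the TIMM22 complex. Of 14 measured genes of this route, 12 had lower means in High A4 and 0 passed in limma. Lower means were found for 74.3% of all probe sets tested and 50.7% of all 26773. Of the 11 genes tested 3 were at an unadjusted p under 0.05, all lower, beside 17.1% of all probe sets tested. TOMM70 had 160, 215, 205 and 276 in High A4 and 286, 296, 297 and 451 in Control. The groups did not overlap, and the log2 difference was -0.64 (standard error 0.20, limma adjusted p = 0.133). TOMM22, the central receptor, had 418, 629, 583 and 723 in High A4 and 870.2, 884, 747 and 793 in Control, again without overlap (log2 difference -0.51, standard error 0.17, limma adjusted p = 0.148). The insertion component TIMM22 itself had -0.22, and the median of the list was -0.18.

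Of 14 other carriers and channels of the inner membrane, 11 of them tested, 11 had lower means in High A4 and 0 passed in limma. Lower means were found for 74.3% of all probe sets tested and 50.7% of all 26773. SFXN4, a sideroflexin, had 65.4, 45.7, 64.6 and 86.1 in High A4 and 93.5, 114, 103 and 122 in Control. All High A4 cows lay below all Control cows, with a log2 difference of -0.75 (standard error 0.19, limma adjusted p = 0.078). It entered the test through its Control mean of 108 alone, and without the noise threshold its limma adjusted p was 0.0345. MICU2, a regulator of the calcium uniporter, had -0.41 (limma adjusted p = 0.138), and MCU, the pore of that uniporter, 0.11. The anion channel VDAC1 of the outer membrane had -0.09 and TSPO was under the noise threshold at -0.01. Of 11 regulators of mitochondrial biogenesis 0 passed in limma, with a median log2 difference of -0.19 over the list. Single genes of it were GABPA at -0.58 (limma adjusted p = 0.218) and TFAM at -0.41 (limma adjusted p = 0.235). The medians of these partner lists lay between -0.36 and 0.09, beside -0.15 for the carriers.

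**Figure D4:**
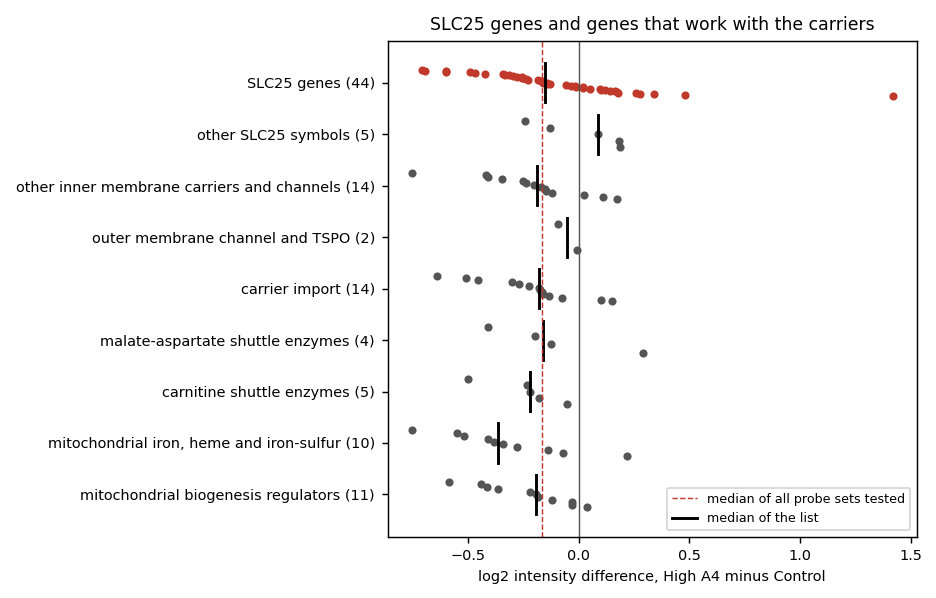
Log2 difference of High A4 minus Control (x axis) for each gene (points) of the SLC25 family and of 8 lists of genes that work with the carriers (y axis, number measured in brackets), with the median of each list as a black bar and the median of all probe sets tested as a dashed line at -0.16. The lists spread around the dashed line, with the iron, heme and iron-sulfur genes lowest at a median of -0.36.

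Markers of dividing cells and of other cell types were read in the same fit, where 0.623% of all probe sets tested fell and 1.56% rose. Of 9 measured markers of dividing cells, 3 fell (BUB1, NDC80 and TK1) and 0 rose in limma. At an unadjusted p under 0.05, 8 were lower, beside 17.1% of all probe sets tested. The median over the 9 was -0.81, with summed intensities of 1865 to 3341 in High A4 and 3272 to 4394 in Control. Of 6 genes listed as theca cell markers 2 rose, CYP17A1 and ALDH1A1 (tested through its High A4 mean alone), with a median of 0.84. The sums were 5976 to 9453 in High A4 and 3007 to 5064 in Control. In these sums LHCGR alone had 3661 to 4963 and 2102 to 3862, and it did not pass (limma adjusted p = 0.157). Whether the RNA of LHCGR, or of NR5A1 on the same list, came from theca or granulosa cells was not tested. Of 12 stromal markers 5 were tested and 2 rose, DCN and OGN (tested through its High A4 mean alone). Means were higher in High A4 for 9 of the 12 and lower for 3, PDGFRB, TCF21 and POSTN, with a median of 0.75. The sums were 2138 to 3896 in High A4 and 865 to 2899.8 in Control. In these sums LUM alone had 933 to 2107 and 247 to 1905, with overlapping groups and a limma adjusted p of 0.424. Of 10 endothelial markers 1 was tested and of 12 leukocyte markers none was, and 0 passed in limma. Their medians were 0.16 and 0.10. Endothelial sums were 394 to 455 in High A4 and 312 to 366 in Control, and leukocyte sums 443 to 999 and 404 to 762. Without the noise threshold 2 of 6 theca, 5 of 12 stromal and 1 of 10 endothelial markers (EMCN) were higher in limma, beside 8.47% of all probe sets. EMCN, COL1A2, COL3A1 and MGP among these were under the threshold in both groups, where 12.2% of all probe sets were higher. In the same fit 5 of 9 markers of dividing cells were lower, beside 1.64% of all probe sets, and 0 leukocyte markers passed. No marker of these lists was at 0. Their part in the values of the carriers was not tested, and in bulk RNA fewer cells of a type and less RNA per cell cannot be told apart.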

How the data were processed

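For 8 arrays, 1 per cow, the authors deposited normalized intensities in 1 table, on a linear scale. The paper names Robust Multi-Array Averaging and GCRMA and Affymetrix Expression Console appear in the submitters' processing notes, so which of the methods made the table is unknown. Their versions and the scan dates are not stated in the sources used here. All intensities were above 0 and were taken to log2. Groups came from the sample titles. High A4 was tested against Control in limma 3.58.1 (R 4.3.3) over probe sets whose mean exceeded 100 in either group, with Benjamini-Hochberg adjustment, after the fit was tested on simulated data. Carriers under that threshold were read from the same fit without it. Symbols came from the platform table and all 44 were found in the RefSeq genes of ARS-UCD2.0. Of 26773 probe sets 688 had several symbols and 7628 none. No sequence is shown.

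The members and lists were chosen with earlier results of these data known, and the oocyte list after values were seen. Genes named by rule are up to 8 carriers tested with the smallest p in each direction, the brightest of each class, and up to 2 per partner list. Only 5 of the carriers tested had higher means in High A4. Other genes given with values, SLC25A15, SLC25A5, TIMM22 and MCU among them, were outside this rule. Lists cover granulosa, theca, stromal, endothelial, leukocyte, dividing and oocyte markers and 8 partner lists. Alternatives were no noise threshold, a mean over all arrays above 100, other scalings, array weights, an offset of 50, a robust prior with an intensity trend, leaving out each cow, a block on the replicate number, and analysis of variance, either plain or with its error variance raised to the level of the 500 nearest probe sets. The number of arrays limits the precision.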

Additional observations from a re-analysis of the deposited data

Results flagged for a closer look

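In 4 of 88 sets of 4 cows (44 carriers in 2 groups), the highest or lowest cow stood apart from the other 3 by more than Dixon's critical share of the range, and chance gives about 1 in 20. SLC25A36 had 729 in High A4 replicate 1, where the other High A4 cows had 1058 to 1118. SLC25A35 had 39.9 in the same cow, against 25.5 to 27.3. SLC25A14 had 196 in Control replicate 4, against 156 to 162. SLC25A42 had 141 in Control replicate 3, against 96.5 to 103.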

How the results depend on the processing

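That no carrier passed held for quantile normalization, arrays centred on the median, an offset of 50, cyclic loess, the intensity trend, both analyses of variance, the replicate block, a threshold on the mean of all 8 arrays and the mean of all probe sets of a gene. It did not hold with array weights (3 lower) or without the noise threshold (1 higher, SLC25A31), and with 1 cow left out the carriers that passed as lower ranged from 0 to 2, the latter without High A4 replicate 4. The cause was not tested. The 2 carriers lower by the study's criterion became 0 with quantile normalization, cyclic loess, the offset and array weights, 1 in each analysis of variance, 4 (with 1 higher) without the noise threshold, and 0 to 3 with 1 cow left out. Over all probe sets, 158 rose and 63 fell. These were 2267 and 440 without the noise threshold, 68 and 17 with the threshold on the mean of all 8 arrays, 328 and 939 with array weights, 96 and 24 in an analysis of variance without moderation and 22 and 0 with raised error variance, and 114 to 302 and 9 to 575 with 1 cow left out, both highest without High A4 replicate 4. Those that fell numbered 19 with quantile normalization and 18 with cyclic loess. Centring the arrays on the median moved the median over the probe sets tested from -0.16 to -0.24, and quantile normalization moved it to -0.03. The median over the 44 carriers stayed between -0.23 and -0.05 across alternatives.

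Combinations with no noise threshold were chosen after seeing the data. SLC25A31 passed in 16 of 17 of them. The exception was the raised error variance, where 0 carriers passed. Lower carriers that passed numbered 1 with array weights (SLC25A33), 1 with the replicate block (SLC25A33, adjusted p = 0.0484) and 0 to 3 with 1 cow left out. Signs turned for SLC25A23 (-0.054 with centred arrays, -0.019 with array weights, -0.13 to 0.15 with 1 cow left out), SLC25A6 (0.035 with quantile normalization, 0.042 with cyclic loess, -0.095 to 0.080 with 1 cow left out) and SLC25A14 (0.022 with array weights, -0.29 to 0.0077 with 1 cow left out).

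Cows share replicate numbers across groups, and the deviations of same-numbered cows from their group means correlated at 0.19, -0.22, -0.11 and 0.20. With no values of differently numbered cows beside them, these cannot show whether the numbers pair cows. With the replicate block 135 probe sets rose and 25 fell, 2 carriers were lower by the study's criterion, and the median over the carriers was -0.15.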
